A study of Mus musculus with 14 samples.

Results

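The genes described here encode the matrix metalloproteases (MMPs), the ADAMTS proteases, the ADAMTS-like proteins and the tissue inhibitors of metalloproteinases (TIMPs) in mouse intervertebral discs. They were taken by name from the gene count table, and 51 names matched. One match, *Mmp1a*, is annotated as a polymorphic pseudogene and was left out, which leaves 50 protein-coding genes of the 55487 genes of the table: 22 MMPs, 19 ADAMTS proteases, 5 ADAMTS-like genes and 4 TIMPs. RNA was sequenced from the tail discs of 14 male mice, with 5 discs pooled per mouse and 1 library per mouse. The db/db group (n = 3) is homozygous and the db/+ control group (n = 3) heterozygous for the Lepr db mutation of the leptin receptor, and these mice were untreated and 12 weeks old. The STZ-HFD group (n = 4) consists of C57BL/6J mice fed a high-fat diet for 4 to 6 weeks, injected once with streptozotocin (STZ, a toxin of pancreatic beta cells) at 100 mg/kg and kept on the diet for 12 further weeks. Its control, Con+Veh (n = 4), is labelled wild type C57BL/6J and received control diet and vehicle. Both models stand for type 2 diabetes (T2D), and the question was how the disc transcriptome of each model differs from that of its own control. The Lepr mutation is present in every cell of the mouse, so a db/db value cannot separate the disc's own response from that of the whole body. The models come from separate cohorts of unlike age and handling, and what each of these adds to a level cannot be told apart.

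MMPs and ADAMTS proteases are zinc enzymes that are secreted or held at the cell surface as inactive precursors and cut collagens, aggrecan, versican and other proteins of the matrix. TIMPs bind the active site of these enzymes and block it, and *Timp3* is the TIMP known for blocking ADAMTS aggrecanases. ADAMTS-like proteins share the non-catalytic domains of the ADAMTS family and lack the protease domain. In discs, loss of aggrecan and collagen by these enzymes is a known part of degeneration.

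On chromosome 9, between 7272514 and 7699585 of GRCm38, 9 MMP genes lie side by side, and this cluster holds, among others, the collagenases, *Mmp3* and *Mmp10* of the stromelysins, matrilysin and macrophage elastase. Promoters of this cluster are known targets of AP-1, a Fos and Jun transcription factor that acts downstream of inflammatory cytokines. RefSeq promoters (GRCm38.p6, from 250 bases before to 50 bases after the gene start) were found by symbol for 35 of the 50 genes, and *Adamts8* was not among them. The AP-1 motif TGANTCA, which reads the same on both strands, was present in 7 of the 9 promoters of the cluster and in 0 of the other 26. Over all 27025 genes with a promoter, 8.97% held it. The motifs are shown because they set the cluster apart from the rest of the family. Each stretch below runs 5′ to 3′ on the strand of the gene, with the AP-1 motif in capitals and 12 bases on either side.
Mmp13 (chr9:7272467-7272497, + strand): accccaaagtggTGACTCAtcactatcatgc
Mmp12 (chr9:7347318-7347348, + strand): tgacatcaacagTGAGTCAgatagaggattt
Mmp1b (chr9:7388101-7388131, - strand): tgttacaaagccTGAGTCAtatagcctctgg
Mmp3 (chr9:7445764-7445794, + strand): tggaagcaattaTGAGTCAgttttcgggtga
Mmp10 (chr9:7502267-7502297, + strand): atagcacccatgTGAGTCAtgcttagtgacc
Mmp20 (chr9:7628124-7628154, + strand): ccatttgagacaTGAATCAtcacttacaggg
Mmp7 (chr9:7692015-7692045, + strand): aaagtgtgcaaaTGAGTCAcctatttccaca

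The motif began 35 bases before the gene start in *Mmp13* and 95 bases before it in *Mmp20*, with the other 5 between these. A TATA box (TATAAA, either strand) was present in 8 of the 9 cluster promoters, in 3 of the 26 others and in 15.7% of all promoters. The reverse held for the GC box (GGGCGG, either strand), with 0 of 9, 22 of 26 and 38.2%. None of these motifs can overlap another of them, and a match of letters shows no binding.

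Most genes of the cluster were too low to be tested. A gene was tested if its level passed 1 CPM in at least 3 libraries, with counts scaled to library size alone. The CPM values given in this report are scaled to library size with TMM factors. The filter was passed by 16915 genes, among them 41 of the 50 genes of the family. In the cluster, 3 of 9 genes passed (*Mmp13*, *Mmp12* and *Mmp3*), whereas 38 of 41 genes elsewhere did. All 3 carry the AP-1 motif, as do *Mmp1b*, *Mmp10*, *Mmp20* and *Mmp7*, which did not pass.

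Depth ran from 16076908 to 58943169 counts per library, ribosomal RNA included. Ribosomal RNA made up 28.1% to 39.7% of the counts in the db cohort and 44.4% to 60.2% in the other cohort. Counts outside it ran from 8945906 in STZ-HFD replicate 1 to 35031712 in db/db replicate 3. The library sizes behind the CPM values include ribosomal RNA. The library of lowest depth, STZ-HFD replicate 1, stood apart from the rest. At least 3 counts were present for 38270 genes in it, against 21712 to 26256 genes in the other 13 libraries, and for 1616 of 2043 odorant, pheromone and taste receptor genes, against 113 to 257. All 50 genes of the family had at least 3 counts in it, against 41 to 46 in the others. For *Adamts3*, *Adamts16* and *Adamts18*, where it lay far above the other STZ-HFD libraries, the log2 fold change is also given without it. It was also the highest STZ-HFD library for *Adamts6*, *Adamts17*, *Adamtsl2*, *Mmp16*, *Mmp24* and *Mmp25*, among others. Values of these genes are given with all libraries only. Skeletal muscle, fat and bone RNA was present in all groups, and fewer cells of a type cannot be told apart from less RNA per cell in these pooled discs.

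Levels were compared between genes per length, as RPKM (CPM divided by the gene's exon length in kilobases). *Timp2* was the highest of the 50 genes in 14 of 14 libraries, at a mean of 168.7 RPKM. *Timp3* was second in 8 libraries and the gelatinase gene *Mmp9* in 6. Their means over all libraries were 25.1 RPKM and 30.02 RPKM. The 4 TIMPs together made up 50.2% to 81.5% of the summed RPKM of the family, and *Timp2* alone 34.0% to 74.1%.

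The summed RPKM of the MMPs was 87.5 to 131.4 in db/+, 63.5 to 109.5 in db/db, 25.9 to 65.6 in Con+Veh and 23.7 to 52.7 in STZ-HFD. For the TIMPs the sum was 228.4 to 294.1 in db/+ and 266.7 to 533 in db/db, and 106.7 to 185.6 in Con+Veh and 87.9 to 114.2 in STZ-HFD. ADAMTS proteases summed to between 24.7 and 35.9 RPKM in all 14 libraries. Every TIMP sum of the db cohort was above every TIMP sum of the other cohort, the MMP sums of the cohorts overlapped in 1 db/db and 1 Con+Veh library, and 6 of the 8 ADAMTS sums of the other cohort were below every ADAMTS sum of the db cohort. Within each model the ADAMTS sums of the diabetic and control libraries overlapped. The ratio of the TIMP sum to the MMP sum was 2.52 ± 0.782 (SD, n = 3) in db/+ and 4.60 ± 2.27 (n = 3) in db/db. It was 4.32 ± 1.73 (n = 4) in Con+Veh and 3.01 ± 0.802 (n = 4) in STZ-HFD, and the libraries of each model overlapped with those of its control. This ratio turned on *Mmp9*: without it the means were 6.74, 8.79, 6.01 and 4.10 in the same order.

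**Figure D1:**
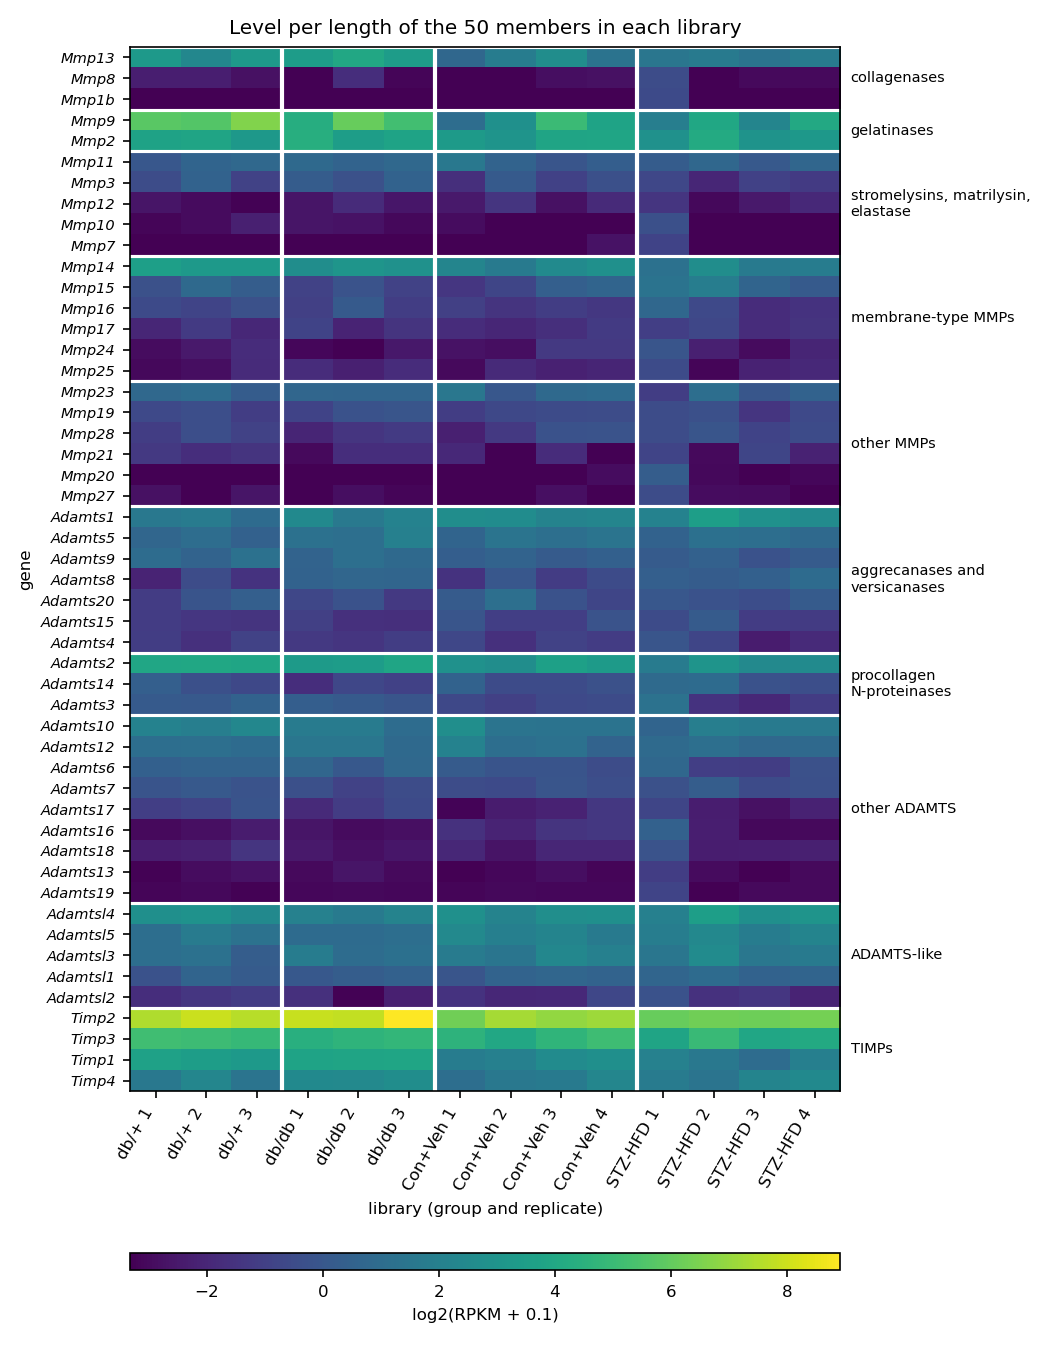
Level of each of the 50 genes (rows, grouped by role) in each of the 14 libraries (columns), as log2(RPKM + 0.1). The *Timp2* row is the brightest in all 14 libraries, and *Mmp1b*, *Mmp7*, *Mmp10*, *Mmp20* and *Adamts19* are near the bottom of the scale everywhere except in STZ-HFD replicate 1.

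**Figure D2:**
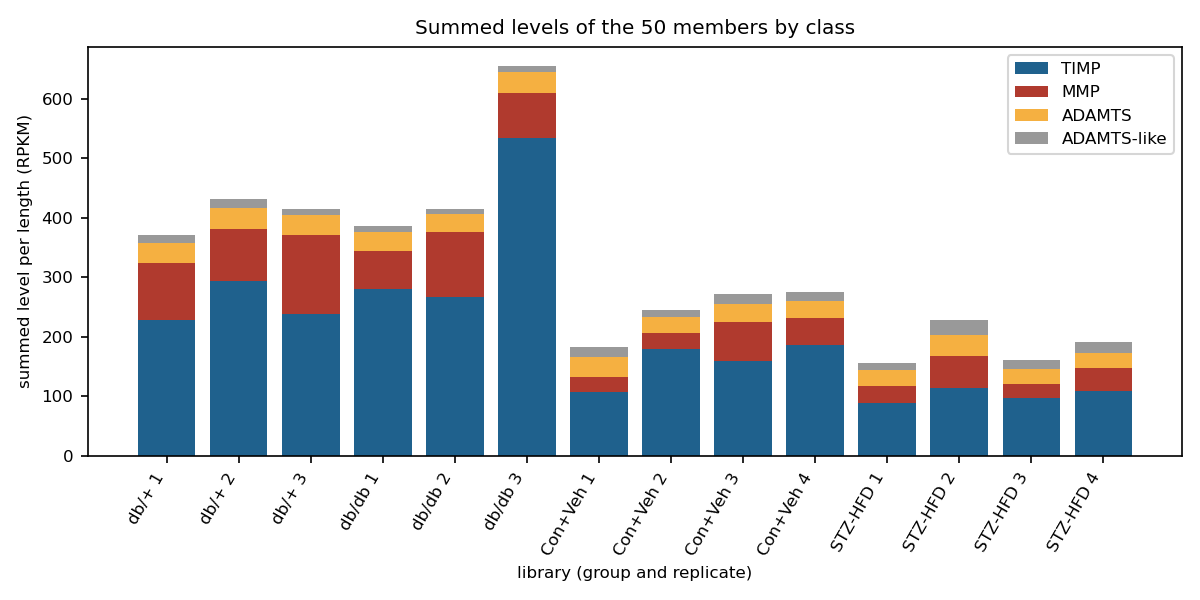
Summed RPKM of the TIMP, MMP, ADAMTS and ADAMTS-like genes in each library, stacked. The TIMP part takes 50.2% to 81.5% of each bar, and the bars of the db/+ and db/db libraries are taller than those of Con+Veh and STZ-HFD.

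Within each model, diabetic and control libraries were compared with limma, which weighted each library by its estimated quality. The weights of replicates 1 to 4 were 0.27, 0.46, 3.05 and 1.81 in Con+Veh and 0.38, 0.69, 1.52 and 1.53 in STZ-HFD. In db/+ and db/db they ran from 1.06 to 1.39. The STZ-HFD fold changes therefore lean on replicates 3 and 4 of both groups. A weighted log2 fold change can differ in sign from the plain CPM means. A call needed a Benjamini-Hochberg adjusted p under 0.05 over the 16915 genes and a log2 fold change of 1 or more in either direction. In db/db, 1 of the 41 tested genes of the family was called, where 1.66% of all tested genes were. In STZ-HFD, 1 of 41 was called, where 2.61% of all tested genes were. Both calls were increases and both were *Adamts8*. Among all genes, 1.23% rose and 0.432% fell in db/db, and 1.3% rose and 1.31% fell in STZ-HFD, and 1 of 41 genes is a share of 2.44%. On the adjusted p alone, 1 of 41 passed in db/db (1.93% of all genes) and 2 of 41 in STZ-HFD (3.45% of all genes), the second being *Adamts2*. The median log2 fold change of the family was -0.066 in db/db (all genes -0.043) and -0.21 in STZ-HFD (all genes -0.036). Of the 41 genes, 24 had a negative log2 fold change in db/db, and for STZ-HFD the number was 28.

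**Figure D3:**
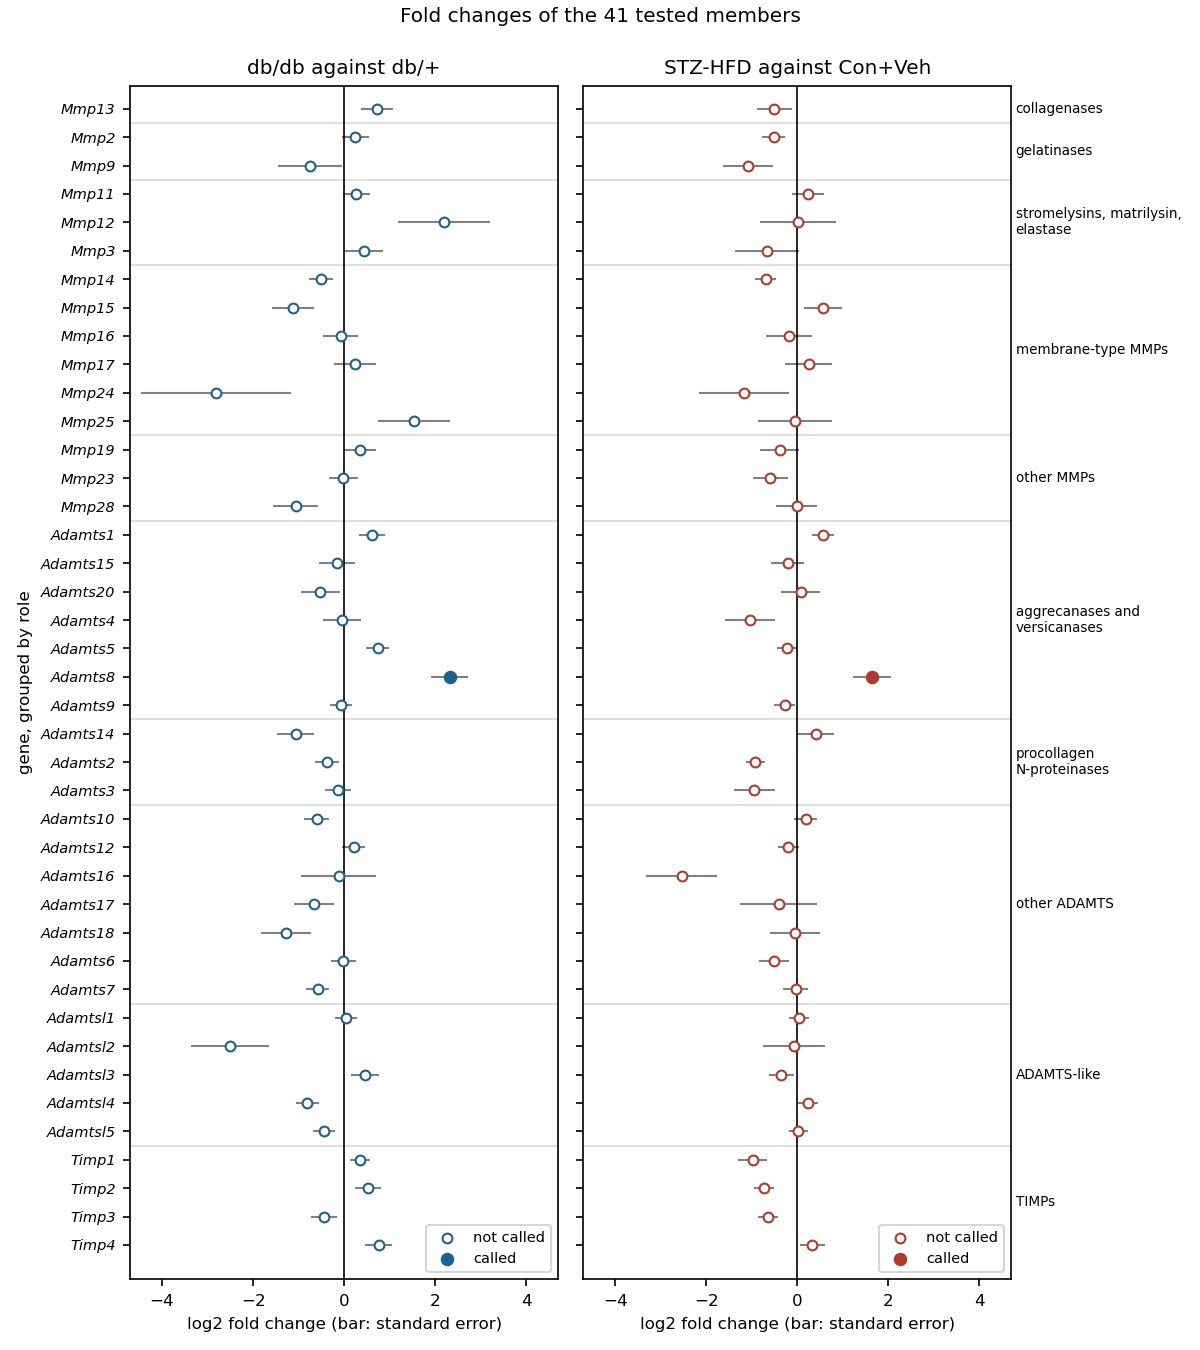
Log2 fold change of the 41 tested genes in db/db against db/+ (left) and STZ-HFD against Con+Veh (right), with bars for the standard error and filled points for called genes. Only *Adamts8* is filled in either panel, at 2.32 and 1.64.

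*Adamts8* (ENSMUSG00000031994, chromosome 9 from 30942562 to 30963838, + strand) encodes a secreted protease that can cut aggrecan. It was named for this family with its increase in both models already known, so its values are a description and not an independent test. In the db cohort it was at 0.612, 2.84 and 1.11 CPM in db/+ and 6.21, 7.03 and 6.91 CPM in db/db. In the other cohort it was at 1.16, 4.22, 1.59 and 2.701 CPM in Con+Veh and 5.56, 5.03, 5.68 and 8.55 CPM in STZ-HFD. Every db/db library was above every db/+ library and every STZ-HFD library above every Con+Veh library, while db/db and STZ-HFD lay in a similar range, as did both control groups. The raw reads behind these levels were 30, 164 and 72 counts in db/+ and 397, 492 and 442 in db/db, and 43, 204, 34 and 50 counts in Con+Veh and 136, 147, 184 and 289 in STZ-HFD. Means were 1.52 ± 1.17 CPM in db/+ and 6.72 ± 0.439 CPM in db/db (SD, n = 3), and 2.42 ± 1.36 CPM in Con+Veh and 6.20 ± 1.59 CPM in STZ-HFD (n = 4). Its log2 fold change was 2.32 (SE 0.42, limma adjusted p = 0.0164) for db/db and 1.64 (SE 0.42, limma adjusted p = 0.0406) for the STZ-HFD group. The increases did not pass as different from each other, with a log2 difference of -0.68 (SE 0.59, limma adjusted p = 0.607).

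The direction of the *Adamts8* difference was the same in every fit, and the call was not. Fits without 1 of the 14 libraries gave log2 fold changes of 1.96 to 2.95 for db/db and 1.28 to 1.78 for STZ-HFD. The db/db call was lost without db/+ replicate 3. The STZ-HFD call was lost without db/+ replicate 3, db/db replicate 3, Con+Veh replicate 3, Con+Veh replicate 4, STZ-HFD replicate 3 or STZ-HFD replicate 4. Without STZ-HFD replicate 1 both calls stood, at log2 fold changes of 2.33 (limma adjusted p = 0.0262) and 1.63 (limma adjusted p = 0.0460). edgeR's quasi-likelihood test gave log2 fold changes of 2.14 (adjusted p = 0.202) and 1.35 (adjusted p = 0.235) and called neither. DESeq2 called the db/db difference, 2.16 (adjusted p = 0.0102), and not the STZ-HFD difference, 1.37 (adjusted p = 0.0909). The antisense gene *Gm29724* overlaps *Adamts8*, and the strand used in counting is not given in the sources used here, so their reads cannot be told apart.

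Marker genes of other tissues also differed between the groups. Of 11 adipocyte markers, 4 were called higher in db/db and 1 in STZ-HFD. Their summed level was 1402 to 1629 CPM in db/db against 1072 to 4229 CPM in db/+. It was 4527 to 8317 CPM in STZ-HFD against 2608 to 4949 CPM in Con+Veh. In db/db 9 of the 11 log2 fold changes were positive and 2 negative, *Car3* (-0.66) and *Cfd* (-0.60). *Car3* had a large part in the sums, with means of 1850 CPM in db/+ and 896 CPM in db/db. Of 12 skeletal muscle markers, 1 fell in db/db, with 3302 to 5566 CPM against 5079 to 9894 CPM in db/+. In STZ-HFD 5 of them rose, with 9775 to 26900 CPM against 9231 to 12322 CPM in Con+Veh. All 12 muscle log2 fold changes were negative in db/db and positive in STZ-HFD. No marker of either list was at 0 in all libraries. With the mean log2 level of the adipocyte markers as a covariate, the log2 fold changes of *Adamts8* were 2.16 (limma adjusted p = 0.327) and 1.51 (limma adjusted p = 0.502). With the muscle markers they were 2.43 (limma adjusted p = 0.0525) and 1.51 (limma adjusted p = 0.240). These sizes were close to those without a covariate, and neither model's difference was called. Marker levels differed between the groups, so these fits cannot tell tissue content apart from group.

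**Figure D4:**
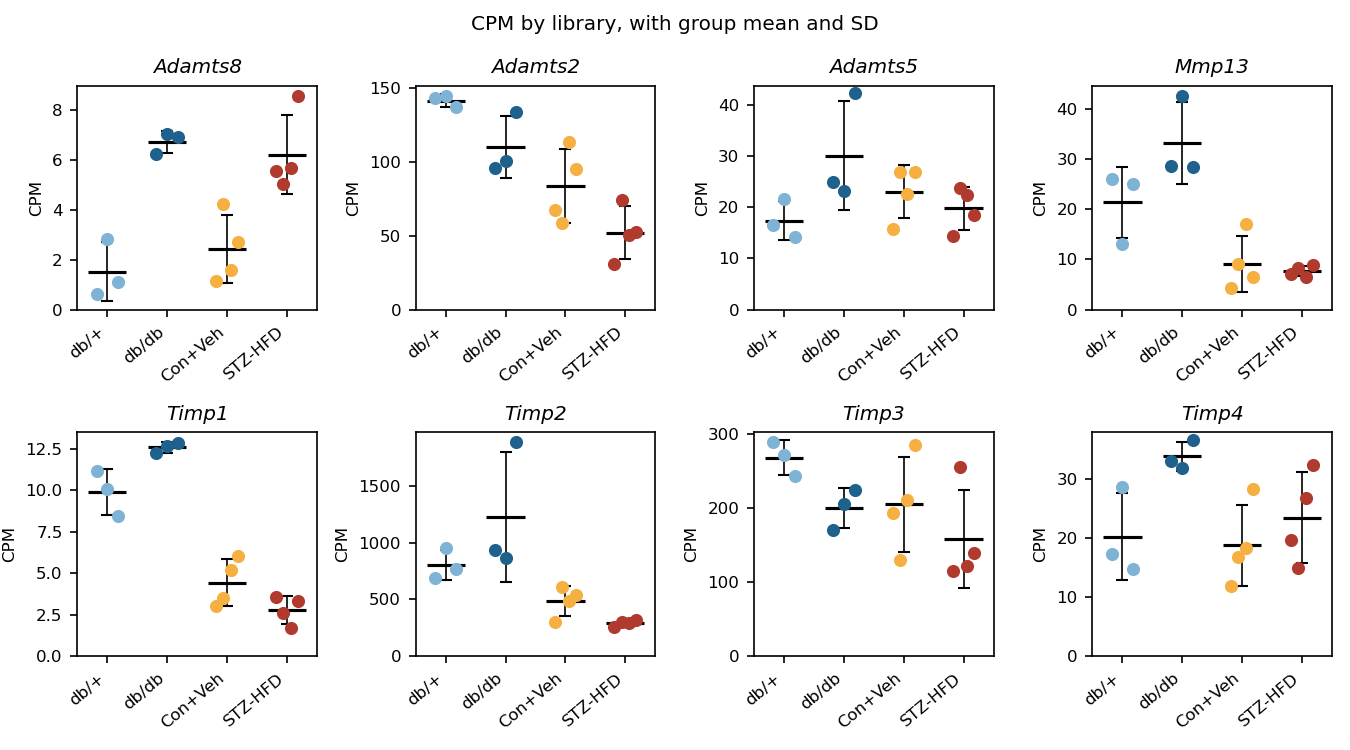
CPM of 8 genes in each library by group (points), with the group mean (thick line) and SD (thin bars). The *Adamts8* points of db/db and STZ-HFD lie above those of the matching controls, *Timp2* in STZ-HFD lies between 259 and 321, and the db/db points of *Timp1* and *Timp4* lie above the db/+ points.

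The other aggrecanases and versicanases did not pass the test in either model. *Adamts5*, the chief aggrecanase of mouse cartilage, was at 16.4, 21.5 and 14.2 CPM in db/+ and 24.8, 23.1 and 42.2 CPM in db/db. All db/db libraries were above all db/+ libraries, and its log2 fold change was 0.73 (SE 0.25, limma adjusted p = 0.113). In the other cohort it was at 15.8, 26.8, 22.6 and 26.9 CPM in Con+Veh and 14.3, 23.8, 22.4 and 18.5 CPM in STZ-HFD, with overlapping groups and a log2 fold change of -0.23 (SE 0.23, limma adjusted p = 0.648). *Adamts1*, a protease of versican and aggrecan, was the highest of this role per length, at 15.4, 17.5 and 9.79 CPM in db/+ and 28.8, 16.1 and 22.3 CPM in db/db. It was at 33.4, 32.9, 22.9 and 24.7 CPM in Con+Veh and 22.04, 60.2, 38.8 and 31.4 CPM in STZ-HFD. Groups overlapped in both models. Its log2 fold changes were 0.62 (SE 0.29, limma adjusted p = 0.226) for db/db and 0.56 (SE 0.25, limma adjusted p = 0.243) for STZ-HFD. The aggrecanase gene *Adamts4* had log2 fold changes of -0.046 and -1.03, and for *Adamts9*, *Adamts15* and *Adamts20* they lay between -0.52 and 0.077 over both models. *Adamts15* is the neighbour of *Adamts8* on chromosome 9, with a log2 fold change of -0.16 in db/db and one of -0.21 in the STZ-HFD model.

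The procollagen N-proteinases *Adamts2*, *Adamts3* and *Adamts14* remove the amino-terminal propeptides of fibrillar collagens. *Adamts2* (ENSMUSG00000036545, chromosome 11 from 50602084 to 50807573, + strand) was at 67.3, 58.6, 113 and 95.5 CPM in Con+Veh and 30.7, 74.5, 50.5 and 52.9 CPM in STZ-HFD. Its log2 fold change in STZ-HFD was -0.92 (SE 0.21, limma adjusted p = 0.0231), which passed the adjusted p and not the minimum fold change, so it was not called. The groups overlapped, with 2 Con+Veh libraries below the highest STZ-HFD library. Leaving out STZ-HFD replicate 2 moved it past the minimum, to -1.02 (limma adjusted p = 0.0156), and without STZ-HFD replicate 1 it was -0.85 (limma adjusted p = 0.0269). In the db cohort it was at 143, 145 and 137 CPM in db/+ and 95.6, 100.8 and 134 CPM in db/db, with every db/db library below every db/+ library and a log2 fold change of -0.38 (SE 0.26, limma adjusted p = 0.415).

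*Adamts14* was at 6.22, 3.65 and 2.71 CPM in db/+ and 1.08, 2.67 and 2.13 CPM in db/db, lower in all db/db libraries than in all db/+ libraries, with a log2 fold change of -1.07 (SE 0.42, limma adjusted p = 0.157). In the STZ-HFD comparison it was at 6.97, 3.14, 3.04 and 3.78 CPM in Con+Veh and 9.12, 9.58, 3.92 and 3.43 CPM in STZ-HFD, and its log2 fold change was 0.41 (SE 0.40, limma adjusted p = 0.649). *Adamts3* was at 5.41, 5.24 and 7.36 CPM in db/+ and 6.31, 5.51 and 4.47 CPM in db/db, with overlapping groups and a log2 fold change of -0.13. It was at 2.92, 2.19, 3.04 and 3.19 CPM in Con+Veh and 12.6, 1.37, 0.834 and 1.89 CPM in STZ-HFD, so 3 STZ-HFD libraries lay below all Con+Veh libraries and replicate 1 lay above them. Its STZ-HFD log2 fold change was -0.94 (SE 0.45, limma adjusted p = 0.285), and -1.25 without that library (limma adjusted p = 0.0986).

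Among the other ADAMTS proteases, 7 of 9 were tested and none was called. *Adamts10* and *Adamts12* had the highest levels per length of this role. *Adamts10*, which is tied to fibrillin microfibrils, was at 35.1, 30.03 and 41.2 CPM in db/+ and 27.6, 27.7 and 15.5 CPM in db/db, lower in all db/db libraries, with a log2 fold change of -0.61 (SE 0.28, limma adjusted p = 0.224). It was at 54.4, 20.5, 20.1 and 20.0 CPM in Con+Veh and 12.0, 30.3, 25.4 and 24.7 CPM in STZ-HFD, where Con+Veh replicate 1 was above all other libraries, with a log2 fold change of 0.18. *Adamts12*, a protease of cartilage oligomeric matrix protein, was at 22.6, 23.4 and 20.2 CPM in db/+ and 29.8, 29.7 and 19.0 CPM in db/db, and at 46.0, 22.6, 25.2 and 15.0 CPM in Con+Veh and 19.7, 22.7, 17.9 and 19.0 CPM in STZ-HFD. Its groups overlapped in both models, with log2 fold changes of 0.21 and -0.20. *Adamts7*, which also cuts cartilage oligomeric matrix protein, was at 5.04, 6.12 and 4.82 CPM in db/+ and 4.37, 2.77 and 3.91 CPM in db/db, and at 3.89, 3.53, 5.19 and 4.21 CPM in Con+Veh and 4.46, 6.98, 3.74 and 4.44 CPM in STZ-HFD. It was lower in all db/db libraries than in all db/+ libraries, with a log2 fold change of -0.58 (SE 0.25, limma adjusted p = 0.202). It overlapped between groups in the other cohort, with a log2 fold change of -0.030.

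*Adamts16* was low throughout, at 0.163, 0.277 and 0.618 CPM in db/+ and 0.438, 0.200 and 0.281 CPM in db/db, and at 1.59, 0.889, 1.73 and 2.00 CPM in Con+Veh and 8.71, 0.718, 0.124 and 0.177 CPM in STZ-HFD. In STZ-HFD, replicates 2, 3 and 4 were below all Con+Veh libraries and replicate 1 was above them. With all libraries its log2 fold change in STZ-HFD was -2.54 (SE 0.77, limma adjusted p = 0.0812), and without STZ-HFD replicate 1 it was -2.99 (limma adjusted p = 0.0404) and was called. The 3 remaining STZ-HFD libraries held 21, 4 and 6 counts of the gene. *Adamts18* was at 0.979, 1.16 and 2.81 CPM in db/+ and 0.814, 0.428 and 0.656 CPM in db/db, lower in all db/db libraries, with a log2 fold change of -1.28 (SE 0.55, limma adjusted p = 0.199). It was at 1.57, 0.558, 1.496 and 1.51 CPM in Con+Veh and 8.06, 0.958, 1.08 and 1.12 CPM in STZ-HFD, again with the highest value in STZ-HFD replicate 1, and a log2 fold change of -0.049, or of -0.26 without that library. The remaining tested genes *Adamts6* and *Adamts17* had log2 fold changes of -0.019 and -0.66 in db/db and -0.51 and -0.41 in STZ-HFD.

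All 5 ADAMTS-like genes were tested and none was called. *Adamtsl4*, a fibrillin-binding protein known from the fibres that hold the lens, was at 28.7, 31.1 and 23.5 CPM in db/+ and 17.2, 13.01 and 18.4 CPM in db/db. Every db/db library was below every db/+ library, with a log2 fold change of -0.80 (SE 0.25, limma adjusted p = 0.0892), the lowest adjusted p of this role. It was at 29.7, 18.0, 27.8 and 28.1 CPM in Con+Veh and 16.3, 48.8, 28.1 and 34.0 CPM in STZ-HFD, with overlapping groups and a log2 fold change of 0.23. *Adamtsl5* was at 9.73, 15.5 and 11.0 CPM in db/+ and 8.56, 8.64 and 9.55 CPM in db/db, again lower in all db/db libraries, with a log2 fold change of -0.44 (SE 0.24, limma adjusted p = 0.306). In the other cohort it was at 25.4, 17.8, 21.2 and 14.9 CPM in Con+Veh and 16.8, 24.6, 16.3 and 20.996 CPM in STZ-HFD and the log2 fold change was 0.024. *Adamtsl2*, a regulator of TGF-beta availability, had the lowest level of this role, at 1.65, 2.28 and 2.86 CPM in db/+ and 1.83, 0.0428 and 0.859 CPM in db/db, and at 2.00, 1.26, 1.31 and 4.11 CPM in Con+Veh and 5.93, 1.85, 2.22 and 1.06 CPM in STZ-HFD. Its log2 fold change in db/db was -2.51 (SE 0.86, limma adjusted p = 0.115), but db/db replicate 1 lay within the db/+ range. *Adamtsl1* and *Adamtsl3* had log2 fold changes of 0.048 and 0.46 in db/db and of 0.037 and -0.35 in STZ-HFD.

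*Mmp13* was the only collagenase with a level that could be tested. It encodes the chief interstitial collagenase of mouse cartilage and bone and was at 26.0, 13.2 and 25.0 CPM in db/+ and 28.6, 42.7 and 28.4 CPM in db/db, higher in all db/db libraries than in all db/+ libraries, with a log2 fold change of 0.72 (SE 0.35, limma adjusted p = 0.251). In the STZ-HFD comparison it was at 4.22, 9.01, 17.0 and 6.43 CPM in Con+Veh and 7.12, 8.38, 6.58 and 8.81 CPM in STZ-HFD, with overlapping groups and a log2 fold change of -0.51 (SE 0.38, limma adjusted p = 0.531). The neutrophil collagenase gene *Mmp8* was at 0.245, 0.259 and 0.108 CPM in db/+ and 0, 0.485 and 0.0313 CPM in db/db, and at 0, 0, 0.0935 and 0.108 CPM in Con+Veh and 1.47, 0, 0.0618 and 0.0591 CPM in STZ-HFD. It stayed under 0.5 CPM in every library except STZ-HFD replicate 1, and it was not tested.

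The gelatinases cut denatured collagen and collagen of basement membranes. *Mmp9*, abundant in osteoclasts and neutrophils, was at 194, 177 and 341 CPM in db/+ and 70.0, 237 and 133 CPM in db/db, and at 7.05, 24.6, 114 and 48.0 CPM in Con+Veh and 12.9, 54.7, 16.2 and 58.4 CPM in STZ-HFD. Its levels varied widely among libraries of the same group, and the groups of each model overlapped. The log2 fold changes were -0.74 (SE 0.70, limma adjusted p = 0.577) and -1.08 (SE 0.55, limma adjusted p = 0.316). Osteoclast markers (8 of 10 tested, 0 called in either model) summed to 172.5 to 268.5 CPM in db/+, 125.9 to 219.1 CPM in db/db, 72.8 to 115.8 CPM in Con+Veh and 51.8 to 91.3 CPM in STZ-HFD, so this list too was higher in the db cohort. Neutrophil markers (3 of 12 tested, 0 called) summed to 7.61 to 17.4 CPM in db/+, 18.6 to 53.7 CPM in db/db, 3.86 to 32.5 CPM in Con+Veh and 4.47 to 8.63 CPM in STZ-HFD. The part of these cells in the *Mmp9* values was not tested. *Mmp2* was more even, at 44.1, 47.6 and 30.7 CPM in db/+ and 67.9, 37.1 and 46.2 CPM in db/db, and at 33.6, 26.8, 48.3 and 49.2 CPM in Con+Veh and 23.96, 59.7, 26.4 and 30.7 CPM in STZ-HFD. Its groups overlapped in both models, with log2 fold changes of 0.25 and -0.52 (SE 0.25, limma adjusted p = 0.294).

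The stromelysins, matrilysin and macrophage elastase were low, and 3 of 5 were tested. *Mmp3* (stromelysin 1), which can also activate other MMP precursors, was at 1.10, 2.39 and 0.773 CPM in db/+ and 1.93, 1.29 and 2.38 CPM in db/db, and at 0.378, 1.80, 0.748 and 1.24 CPM in Con+Veh and 0.900, 0.274, 0.741 and 0.591 CPM in STZ-HFD. It was at or below 2.39 CPM in every library, with overlapping groups and log2 fold changes of 0.43 (SE 0.42, limma adjusted p = 0.587) and -0.66 (SE 0.70, limma adjusted p = 0.675). *Mmp11* (stromelysin 3) was at 2.49, 3.94 and 4.68 CPM in db/+ and 4.805, 3.83 and 4.61 CPM in db/db, and at 8.16, 3.80, 2.34 and 3.24 CPM in Con+Veh and 3.03, 4.45, 2.72 and 4.35 CPM in STZ-HFD, with log2 fold changes of 0.27 and 0.25. *Mmp12* (macrophage elastase) was at 0.449, 0.190 and 0.0309 CPM in db/+ and 0.438, 1.30 and 0.5001 CPM in db/db, and at 0.567, 1.92, 0.327 and 1.30 CPM in Con+Veh and 1.92, 0.137, 0.556 and 1.18 CPM in STZ-HFD. Its db/db log2 fold change was 2.19 (SE 1.01, limma adjusted p = 0.223), with db/db replicate 1 below db/+ replicate 1, and in STZ-HFD it was 0.011. *Mmp12* and *Mmp1b* overlap on opposite strands.

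All 6 membrane-type MMPs were tested and none was called. *Mmp14*, the membrane collagenase that activates the *Mmp2* product, was the highest of them. It was at 71.0, 56.6 and 58.6 CPM in db/+ and 37.4, 49.3 and 43.7 CPM in db/db, lower in all db/db libraries, with a log2 fold change of -0.51 (SE 0.26, limma adjusted p = 0.273). It was at 28.1, 18.7, 34.4 and 41.3 CPM in Con+Veh and 13.74, 37.4, 19.1 and 20.2 CPM in STZ-HFD, with overlapping groups and a log2 fold change of -0.69 (SE 0.23, limma adjusted p = 0.112). *Mmp15* was at 3.96, 9.19 and 6.03 CPM in db/+ and 2.32, 4.13 and 2.36 CPM in db/db, where db/db replicate 2 was just above db/+ replicate 1, and its log2 fold change was -1.12 (SE 0.46, limma adjusted p = 0.180). In the other cohort it was at 1.54, 2.62, 6.40 and 7.73 CPM in Con+Veh and 13.04, 19.3, 7.69 and 5.38 CPM in STZ-HFD, and the log2 fold change was 0.57. For *Mmp16*, *Mmp17*, *Mmp24* and *Mmp25* the log2 fold changes were between -2.81 and 1.54 in db/db and between -1.17 and 0.25 in STZ-HFD. The widest of these came from *Mmp24*, which was at 0 in 1 db/db library and under 1 CPM in all libraries of the db cohort. In STZ-HFD replicate 1 *Mmp24* was at 3.97 CPM, against 0.124 to 0.651 CPM in the other STZ-HFD libraries.

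Of the 6 other MMPs, 3 were tested and none was called. *Mmp23* was at 3.92, 4.43 and 2.52 CPM in db/+ and 3.62, 3.53 and 3.44 CPM in db/db, and at 6.46, 2.09, 4.07 and 4.32 CPM in Con+Veh and 0.859, 4.79, 2.04 and 3.13 CPM in STZ-HFD, with log2 fold changes of -0.021 and -0.59. *Mmp19* was at 1.94, 2.32 and 1.30 CPM in db/+ and 1.58, 2.60 and 3.00 CPM in db/db, and at 1.27, 1.88, 2.10 and 2.22 CPM in Con+Veh and 2.17, 2.46, 0.958 and 1.92 CPM in STZ-HFD, with log2 fold changes of 0.35 and -0.38. Groups of both genes overlapped in both models. *Mmp28* (epilysin) was lower in all db/db libraries than in all db/+ libraries, with a log2 fold change of -1.06 (SE 0.49, limma adjusted p = 0.228), and had a log2 fold change of -0.015 in STZ-HFD.

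None of the 4 TIMPs was called in either model. *Timp2* (ENSMUSG00000017466, chromosome 11 from 118301069 to 118355740, - strand), which inhibits MMPs broadly and also helps *Mmp14* to activate *Mmp2*, was at 302, 606, 484 and 542 CPM in Con+Veh and 259, 301, 294 and 321 CPM in STZ-HFD. The STZ-HFD libraries lay in a narrow band, and 3 of the 4 Con+Veh libraries were above all of them. Means were 484 ± 131 CPM in Con+Veh and 294 ± 26.1 CPM in STZ-HFD (SD, n = 4), with a log2 fold change of -0.73 (SE 0.21, limma adjusted p = 0.0678). It was at 691, 952 and 766 CPM in db/+ and 932, 864 and 1888 CPM in db/db, where db/db replicate 3 was about 2 times as high as the other db/db libraries, with a log2 fold change of 0.52 (SE 0.29, limma adjusted p = 0.317).

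*Timp1* (ENSMUSG00000001131, chromosome X from 20870166 to 20874735, + strand), an inducible inhibitor of secreted MMPs, was at 3.00, 3.49, 5.19 and 6.05 CPM in Con+Veh and 3.56, 2.60, 1.70 and 3.34 CPM in STZ-HFD. Those groups overlapped, and the log2 fold change was -0.98 (SE 0.31, limma adjusted p = 0.0934). It was at 11.2, 10.1 and 8.46 CPM in db/+ and 12.2, 12.7 and 12.9 CPM in db/db, with all db/db libraries above all db/+ libraries and a log2 fold change of 0.35 (SE 0.22, limma adjusted p = 0.371). *Timp1* lies within *Syn1*, which is on the opposite strand and had log2 fold changes of -1.04 in STZ-HFD and 0.17 in db/db. Without strand, reads of the overlapping parts cannot be told apart, and the same holds for *Timp3* with *Syn3* and *Timp4* with *Syn2*.

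*Timp3* (ENSMUSG00000020044, chromosome 10 from 86300372 to 86349506, + strand), the matrix-bound inhibitor, was at 194, 129, 212 and 285 CPM in Con+Veh and 115, 256, 121 and 139.6 CPM in STZ-HFD, with overlapping groups and a log2 fold change of -0.64 (SE 0.22, limma adjusted p = 0.131). It was at 290.1, 272 and 243 CPM in db/+ and 171, 205 and 225 CPM in db/db, so that all db/db libraries lay below all db/+ libraries, with a log2 fold change of -0.43 (SE 0.29, limma adjusted p = 0.396). *Timp4* (ENSMUSG00000030317, chromosome 6 from 115241892 to 115252205, - strand) was at 17.2, 28.6 and 14.8 CPM in db/+ and 33.0, 31.8 and 36.7 CPM in db/db, higher in all db/db libraries, with a log2 fold change of 0.76 (SE 0.29, limma adjusted p = 0.157). In the other cohort it was at 11.9, 16.8, 18.3 and 28.3 CPM in Con+Veh and 19.8, 14.9, 26.9 and 32.4 CPM in STZ-HFD, and its log2 fold change was 0.33 (SE 0.27, limma adjusted p = 0.563). The TIMPs therefore split in both models, with 3 positive and 1 negative log2 fold change in db/db and 1 positive and 3 negative in STZ-HFD.

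Libraries of the groups did not overlap for 15 of the 41 tested genes (36.6%) in db/db, against 25.8% of all tested genes. In 5 of these the db/db libraries were higher (14.1% of all genes), namely *Adamts5*, *Adamts8*, *Mmp13*, *Timp1* and *Timp4*. In 10 they were lower (11.7% of all genes), namely *Adamts2*, *Adamts7*, *Adamts10*, *Adamts14*, *Adamts18*, *Adamtsl4*, *Adamtsl5*, *Mmp14*, *Mmp28* and *Timp3*. In STZ-HFD only *Adamts8* did not overlap, 1 of 41 genes (2.44%), against 4.74% of all genes in either direction and 1.97% with higher diabetic libraries. An unadjusted p under 0.05 was reached by 13 of 41 genes (31.7%) in db/db, against 21.1% of all genes, and by 8 of 41 (19.5%) in STZ-HFD, against 17.9%. Apart from *Adamts8*, none of these was called.

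Values in db/db went with base composition. Over the 41 genes, the Spearman correlation of the db/db log2 fold change with the GC content of the gene's longest transcript was -0.503, and over 16899 tested genes it was -0.428. The genes share their libraries, so the coefficient is a description. When the GC trend of each library was removed, the values were -0.221 and 0.0053. The 21 genes of the family with the higher GC content had a median log2 fold change of -0.51 as fitted and of -0.17 with the trend removed, and 16 and 13 of them were negative. Of the 10 genes that were lower without overlap, 8 were among these 21. Their log2 fold changes ran from -1.28 to -0.38 as fitted and from -1.25 to -0.025 with the trend removed. *Adamts8*, with a high GC content, went from 2.32 to 2.67 and was called in both fits. In STZ-HFD the correlation over the 41 genes was 0.208.

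**Figure D5:**
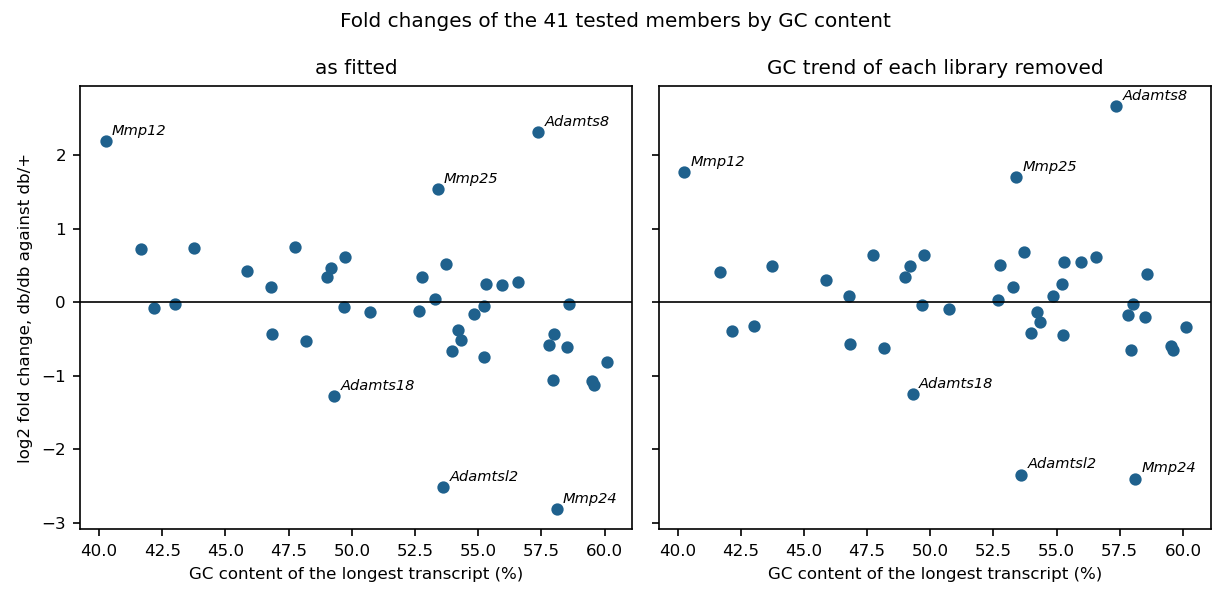
Log2 fold change in db/db against the GC content (%) of the longest transcript for the 41 tested genes, as fitted (left) and with the GC trend of each library removed (right). The points slope down on the left (Spearman -0.503) and less so on the right (-0.221), and *Adamts8* stays at the top.

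The difference between the models was tested directly, as the STZ-HFD log2 fold change minus that of db/db. No gene of the family passed an adjusted p under 0.05 with limma, where 1.77% of all tested genes did, and edgeR's quasi-likelihood test and DESeq2 also gave 0. At an unadjusted p under 0.05 there were 9 of 41 (22%), against 17.3% of all genes, with 7 of 41 by edgeR and 6 of 41 by DESeq2. These 9 were *Adamts5*, *Adamts14*, *Adamts16*, *Adamtsl2*, *Adamtsl4*, *Mmp13*, *Mmp15*, *Timp1* and *Timp2*. The lowest adjusted p belonged to *Timp1*, with a log2 difference of -1.33 (SE 0.38, limma adjusted p = 0.0811), and to *Timp2*, with -1.25 (SE 0.36, limma adjusted p = 0.0842). Those of *Timp3* and *Timp4* were -0.20 (SE 0.36, limma adjusted p = 0.8293) and -0.42 (SE 0.40, limma adjusted p = 0.637).

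Calls among the substrates of these enzymes were made in STZ-HFD. Of 24 tested genes for matrix proteins of the disc that the family cuts or processes, 10 fell in STZ-HFD, and 0 were called in db/db with limma (6 at an unadjusted p under 0.05). Among all tested genes 1.31% fell in STZ-HFD, and this share also stands beside the lists that follow. The paper reports decreases of *Acan*, *Vcan*, *Dcn*, *Fmod*, *Col2a1*, *Hapln1* and *Fn1* from these same libraries. The list was chosen with earlier results known, so its count is a description. Those that fell were *Vcan* (versican, -2.76 (SE 0.30, limma adjusted p = 0.000163)), *Prg4* (-2.67), *Col2a1* (-1.84), *Hapln1* (-1.68), *Dcn* (-1.65), *Fn1* (-1.62), *Acan* (aggrecan, -1.59 (SE 0.32, limma adjusted p = 0.0154)), *Fmod* (-1.58), *Comp* (-1.45) and *Cilp* (-1.44), each with its log2 fold change. *Col1a1*, a main collagen of the annulus and of bone, had a log2 fold change of -0.84 (SE 0.27, limma adjusted p = 0.104) and was not called. The median of the 24 genes was -0.91 in STZ-HFD and 0.030 in db/db, where 12 were negative and 12 positive. *Acan* had a db/db log2 fold change of -1.03 (SE 0.48, limma adjusted p = 0.224). For *Col2a1*, *Fn1*, *Comp*, *Vcan* and *Col1a1* the db/db values were -0.98, -0.96, -0.74, -0.68 and -0.45. Other substrates went the other way in db/db. Of the 6 genes at an unadjusted p under 0.05, *Lum* (1.03), *Dcn* (0.88) and *Ncan* (3.59) were positive. *Acan*, *Bcan* (-1.80) and *Col5a1* (-0.85) were negative. *Lum* had the lowest p of the list (limma adjusted p = 0.0568). No test of the difference between the models is given here for these substrates. The count of 10 depended on the test and on single libraries. It was 2 with edgeR's quasi-likelihood test, 8 with DESeq2 and 2 without quality weights, and also 2 without Con+Veh replicate 3, without Con+Veh replicate 4 or without STZ-HFD replicate 3. It was 10 without STZ-HFD replicate 1, 1 with the adipocyte markers as a covariate and 4 with the muscle markers, and the median was below 0 in each of these fits. In db/db, edgeR called 0 of the 24 genes and DESeq2 called 1. Chondrocyte markers went the same way, with 5 of 10 called lower in STZ-HFD, and 4 of these, *Acan*, *Col2a1*, *Hapln1* and *Comp*, are in both lists. Chondrocyte markers summed to 1464 to 3450 CPM in Con+Veh and 657.5 to 1383 CPM in STZ-HFD.

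Among the 12 tested proprotein convertases, plasminogen activators and related serine proteases, which activate MMP precursors, 2 fell in STZ-HFD, the protease inhibitor gene *Serpine2* (-1.38 (SE 0.32, limma adjusted p = 0.0264)) and the serine protease gene *Htra3* (-1.26 (SE 0.26, limma adjusted p = 0.0174)). *Furin*, which cuts the precursors of membrane-type MMPs and ADAMTS enzymes, had a log2 fold change of -0.44 in db/db and one of -0.51 in the STZ-HFD model. Of 12 tested other inhibitors and scavengers, 2 fell in STZ-HFD, *Thbs1* (-1.95 (SE 0.31, limma adjusted p = 0.00453)) and *Thbs2* (-1.46 (SE 0.31, limma adjusted p = 0.0193)), which encode thrombospondins that bind MMPs. *Lrp1*, the receptor that clears ADAMTS5, MMPs and TIMPs, had a log2 fold change of -0.97 (SE 0.25, limma adjusted p = 0.0409) and stayed under the minimum fold change. Of 18 tested related metalloproteinases, the sheddase gene *Adam10* fell in STZ-HFD (-1.13 (SE 0.19, limma adjusted p = 0.00659)). Of 22 tested inducers and their receptors, *Sdc4*, a syndecan that takes part in ADAMTS5 activation, fell in STZ-HFD (-1.28 (SE 0.32, limma adjusted p = 0.0345)). *Il1b*, *Tnf*, *Il6* and *Fosl1* were too low to be tested, and the AP-1 genes *Jun* and *Fos* had STZ-HFD log2 fold changes of -0.26 and -1.09 (SE 0.40, limma adjusted p = 0.154). None of these 6 STZ-HFD calls was made with edgeR's quasi-likelihood test, without quality weights, or without Con+Veh replicate 3, Con+Veh replicate 4 or STZ-HFD replicate 3. DESeq2 called 2 inhibitors or scavengers and 1 related metalloproteinase, and 0 genes of the other 2 lists. In db/db, 0 genes of these 4 lists were called with limma, where 2 genes of each list had an unadjusted p under 0.05, and edgeR also called 0 and DESeq2 called 1.

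Other marker lists show which tissues the libraries held. Osteoblast and osteocyte markers summed to 16899 to 19226 CPM in db/+ and 9365 to 15436 CPM in db/db, against 1272 to 2694 CPM in Con+Veh and 700.6 to 2470 CPM in STZ-HFD, and 2 of 11 were called lower in STZ-HFD. Of 12 macrophage markers, 4 were called lower in STZ-HFD, with a sum of 168.3 to 353 CPM in Con+Veh and 122 to 211.9 CPM in STZ-HFD. Markers of the annulus and tendon were called lower in 3 of 8 cases, and those of hypertrophic chondrocytes in 2 of 7. In db/db, 1 of 10 endothelial markers was called higher. No marker was called for nucleus pulposus and notochord (8 of 10 tested), keratinocytes (4 of 9), erythroid cells (5 of 8) or Schwann cells (8 of 8). No list had a marker at 0 in all libraries. Nucleus pulposus and notochord markers summed to 142.1 to 652 CPM in db/+, 182.3 to 309 CPM in db/db, 180.2 to 1297 CPM in Con+Veh and 235.6 to 757 CPM in STZ-HFD. The part of these cell types in the values of the proteases and inhibitors was not tested, and the muscle and adipocyte fits cannot tell it from group.

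The 9 untested genes were *Mmp1b*, *Mmp7*, *Mmp8*, *Mmp10*, *Mmp20*, *Mmp21*, *Mmp27*, *Adamts13* and *Adamts19*. Of these, 6 belong to the chromosome 9 cluster. *Mmp1b* had 0 counts in 13 libraries and 20 counts in STZ-HFD replicate 1. *Mmp21* differed from the other 8 in that its highest level was not in STZ-HFD replicate 1, at 1.27 CPM there and 1.33 CPM in STZ-HFD replicate 3. A count of 0 allows up to 3 counts, which is 0.0428 to 0.162 CPM in these libraries, and this limit covers counting error only.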

How the data were processed

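RNA-seq of pooled tail discs gave 1 library for each of 14 mice, and groups were taken from the sample labels. The authors aligned reads to Ensembl release 101 with STAR and deposited gene counts from featureCounts, as whole numbers without normalization, and estimated counts per transcript from Salmon, which entered 1 alternative here after rounding the sum per gene. Whether the counting used strand is not given in the sources used here. Of 55774 lines, 287 repeated an identifier with the same values and were used once.

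As in the paper's methods, counts were normalized with edgeR (4.0.16) and tested with limma's voomWithQualityWeights (3.58.1) in R 4.3.3 at a minimum fold change. TMM factors, 1 fit of all 14 libraries and the filter (over 1 CPM in at least 3 libraries) were choices made here, with Benjamini-Hochberg adjustment over 16915 genes per contrast. RPKM used exon lengths of GENCODE M21 (GRCm38), and sequences are from RefSeq. Tests with DESeq2 1.42.0 and edgeR's quasi-likelihood method were alternatives, beside the other settings of the closing section. The scripts were tested on simulated data. None of the 18 pairs of libraries within groups held repeated counts. Depth was 16076908 to 58943169 counts with ribosomal RNA included, and intervals or floors cover counting error only.

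The genes and lists were chosen with earlier results of these data known. Named with every library's value were *Adamts8*, called genes, the 2 highest genes per role by RPKM and the 10 of lowest p per model, 29 in all, and the rest have ranges or fold changes. Some pathway and marker genes were singled out after their values were seen. The authors' normalized values and pathway tests were not used.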

Additional observations from a re-analysis of the deposited data

Results flagged for a closer look

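In 7 of 58 groups of 4 libraries, 1 library lay far from the other 3. For independent groups of normally distributed values the rule flags about 1 in 20, or 2.9. These groups share their libraries and some hold levels near 0, so 7 against 2.9 is no test of chance. In 4 of the 7 flagged groups the library was STZ-HFD replicate 1, which has the lowest depth and the most genes detected. It held *Adamts16* at 8.71 CPM (others 0.124 to 0.718), *Adamts18* at 8.06 CPM (0.958 to 1.12), *Adamts3* at 12.6 CPM (0.834 to 1.89) and *Mmp8* at 1.47 CPM (0 to 0.0618). Con+Veh replicate 1 held *Adamts10* at 54.4 CPM (20.0 to 20.5). Con+Veh replicate 2 held *Adamts18* at 0.558 CPM (1.496 to 1.57) and *Adamtsl4* at 18.0 CPM (27.8 to 29.7).

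Genes that failed the filter on low counts entered no comparison, and 8 of the 9 had their highest level in STZ-HFD replicate 1, above the level that a count of 0 allows. These were *Mmp8* at 1.47 CPM, *Mmp1b* at 0.818 CPM, *Adamts13* at 1.84 CPM, *Adamts19* at 6.58 CPM, *Mmp20* at 3.68 CPM, *Mmp27* at 1.39 CPM, *Mmp10* at 1.19 CPM and *Mmp7* at 0.491 CPM. In the other 13 libraries none of these 8 genes passed 0.5 CPM. *Mmp21* was highest in STZ-HFD replicate 3, at 1.33 CPM.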

How the results depend on the processing

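The number of genes of the family called was 1 in db/db, 1 in STZ-HFD and 0 for the difference between the models. The db/db count became 0 with edgeR's quasi-likelihood test, voom without quality weights, gene totals from transcript counts, or a covariate (the mean level of the muscle markers, or of the adipocyte markers). It stayed at 1 with DESeq2, RLE size factors, ribosomal RNA genes removed, the GC trend removed, either other filter, each model alone, no minimum fold change, and without both libraries named RIP. Leaving out each library gave 0 to 1, with 0 without db/+ replicate 3. The STZ-HFD count became 0 with DESeq2, edgeR's quasi-likelihood test, voom without quality weights, ribosomal RNA genes removed, filterByExpr, no filter on low counts, transcript totals, either covariate, or without both RIP libraries, and 2 with no minimum fold change (*Adamts2* and *Adamts8*). Leaving out each library gave 0 to 2, with 2 without STZ-HFD replicate 1 (*Adamts16* and *Adamts8*) or STZ-HFD replicate 2 (*Adamts2* and *Adamts8*), and with 0 for the 6 libraries named in the report. The cause was not tested. The difference count was 0 in every fit that gave it. Over all genes, calls in db/db were 281 with limma, 0 with edgeR (1891 genes at an unadjusted p under 0.05) and 211 with DESeq2, and in STZ-HFD 441, 29 and 272. The transcript totals do not cover the coding transcript of *Adamts8*, since a nonsense-mediated decay transcript, Adamts8-202, was its only transcript used here.

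With the replicate number as a block (replicate block), 3 genes were called in db/db (*Adamts8*, *Adamts14* at a log2 fold change of -1.58 and *Mmp15* at -1.01) and 0 in STZ-HFD, and over all genes 1484 and 6. Same-numbered libraries are different mice, and their deviations from the group means did not go together (mean r -0.072 in db and -0.14 in the other cohort, against 0.036 and 0.047 for other pairs), with 2 of 6 and 1 of 8 libraries closest to their own number.

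Of 1561 log2 fold changes of named genes under 28 alternatives, 1497 kept their side of the threshold and moved by less than the replicate spread, 37 moved by more, 23 lost a call, all of them *Adamts8*, and 4 gained one. Depth limits the genes under 1 CPM most.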
